A study of Mus musculus with 5 samples.

Results

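miR-210 is represented on the arrays by the mature products of its only mouse hairpin, mmu-miR-210-3p and mmu-miR-210-5p (miR-210-3p and miR-210-5p below). Both were taken as every probe whose name begins with mmu-miR-210-, which gave 2 of the 1900 mouse miRNAs measured. miR-210 was chosen by its array intensity, as miR-210-3p was higher in unwounded 2-year-old than in unwounded 8-week-old skin, so that difference is described here and not used as support. The data are 5 single-colour miRNA arrays of back skin of female mice, 1 array for each condition. Aged (2-year-old) skin was profiled before wounding (D0) and on days 3, 5 and 7 (D3, D5, D7) after a full-thickness punch wound of 3 mm, made in the resting (telogen) stage of the hair cycle, and young (8-week-old) skin was profiled unwounded only. The labels give no strain and no number of animals behind an array. With 1 array a condition there is no replicate check and no p-value, the number of arrays limits the precision, and every error below comes from the 2 spots that carry each miRNA on an array. Young wounds are not analysed here.

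miR-210 is the miRNA most widely known to respond to low oxygen. Its transcription is activated by hypoxia-inducible factor 1, and the mature strand lowers, among others, the iron-sulphur cluster scaffold ISCU, the receptor ligand ephrin-A3 and the cell cycle factor E2F3, which links it to mitochondrial respiration, vessel growth and proliferation. In skin it is known from ischaemic wounds, where it has been tied to reduced keratinocyte proliferation. None of these targets was measured on the arrays.

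The array sequences of both products were identical to those in the RefSeq miRNA table of the mouse assembly GRCm38.p6. They are shown first because the signal of an array probe depends on its sequence. Capitals mark the seed, bases 2 to 8 from the 5′ end, with which a miRNA pairs to its targets.
miR-210-3p: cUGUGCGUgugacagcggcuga
miR-210-5p: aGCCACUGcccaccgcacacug
The hairpin, with miR-210-5p and then miR-210-3p in capitals, lies at chr7:141221384-141221493 on the minus strand.
Mir210: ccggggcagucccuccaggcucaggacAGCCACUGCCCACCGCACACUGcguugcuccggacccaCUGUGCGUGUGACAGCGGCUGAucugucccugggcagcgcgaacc
In the RefSeq gene table of that assembly no other gene overlaps Mir210, and it lies between Rassf7 and Gm51460, with Phrf1 following.

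No other of the 1899 miRNAs on the array has the seed of miR-210-3p, and none has that of miR-210-5p. Of the other sequences, 1 shares bases 2 to 7 with miR-210-3p, miR-147-3p, and 3 hold its seed elsewhere, miR-466d-5p, miR-466n-5p and miR-468-3p, named after their values were seen. They are shown, with the shared bases in capitals, because the longest run in common with miR-210-3p, 10 bases, is that of miR-468-3p.
miR-147-3p: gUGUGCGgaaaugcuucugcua
miR-466d-5p: ugugUGUGCGUacauguacaug
miR-466n-5p: gugUGUGCGUacauguacaugu
miR-468-3p: uaugacugaUGUGCGUgugucug
Their signals were near background. miR-468-3p was the only 1 of the 4 above the detection level on all 5 arrays. Its scanned intensities were 111 at aged D0, 97.8 on D3, 95.8 on D5, 141 on D7 and 168 in young skin. By scanned intensity it was highest in young skin, where miR-210-3p was lowest. Relative to the detection level of each array it was highest on D3, as was miR-210-3p, at 1.68 times against 1.57 in young skin. Its part in the signal of miR-210-3p was not tested. As a whole, miR-698-5p and miR-7672-5p were nearest to miR-210-3p, at an edit distance of 7 bases. miR-344g-3p, at 8, was taken as next by name order from a tie. These 3 reached at most 1.30 times the detection level on any array. Of sequences tied with miR-344g-3p, miR-5104 and miR-7237-5p reached at most 1.19 times that level. miR-6987-5p, also tied, was above it on all 5 arrays, with 1.85 times on D3 and 1.63 in young skin.

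The scanned intensity of miR-210-3p at aged D0 was 308 on its first spot and 272 on its second. On D3 the spots gave 465 and 413, on D5 269 and 220, and on D7 326 and 259. In unwounded young skin they gave 224 and 215. Both spots on the D3 array lay above every other spot of miR-210-3p, and the young spots lay below those of the other arrays except the second spot on D5. The detection level of an array was set at the 95th percentile of its 4 empty spots, which gave 105 for aged D0, 58.3 for D3, 61.1 for D5, 99.0 for D7 and 107 for young skin, and a miRNA above 2 times this level was called bright. miR-210-3p was bright on all 5 arrays, at 2.75, 7.53, 4.0, 2.95 and 2.05 times the detection level in that order, so the young value stood only just above the bright level. After subtraction of the mean of the empty spots, 193, 386, 187, 207 and 127 units of intensity remained.

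**Figure D1:**
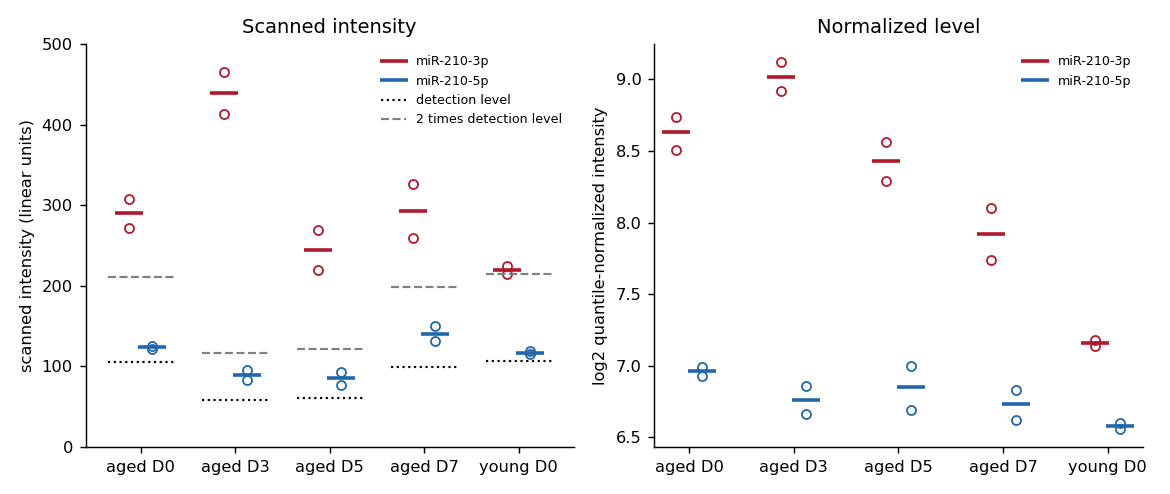
Scanned intensity (left, linear units) and log2 quantile-normalised intensity (right) of miR-210-3p and miR-210-5p on the 5 arrays; open circles are the 2 spots, short bars their mean, dotted lines the detection level and dashed lines 2 times that level. miR-210-3p was highest on D3 and lowest in young skin on both scales, and miR-210-5p stayed between the 2 lines on every array.

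After normexp background correction and quantile normalisation over the 5 arrays, the log2 level of miR-210-3p was 9.02 ± 0.15 on D3 (SD, n = 2 spots), 8.63 ± 0.16 at aged D0, 8.43 ± 0.19 on D5, 7.92 ± 0.25 on D7 and 7.16 ± 0.03 in young skin. The order was thus D3, D0, D5 and D7 in aged skin, and then young skin. Neighbours in this order were compared with the SD that the repeat spots of all bright miRNAs gave for a log2 ratio. D3 exceeded D0 by 0.39, or 2.8 of these SDs, and D0 exceeded D5 by 0.20, or 1.5 SDs. D5 exceeded D7 by 0.51, which is 2.3 SDs, and D7 exceeded young skin by 0.76, or 3.4 SDs. The SDs cover the array only, and aged D0 and D5 were the closest pair. Under the main setting and 11 alternatives, young skin was lowest in all 12, D3 was above D5 and above D7 in all 12, and D3 was highest in 11, with aged D0 at 8.44 against 8.42 on D3 after scaling to the spike calibration controls.

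The values that chose miR-210 are those of unwounded skin. The quantile-normalised ratio of aged D0 over young D0 was 2.76 for miR-210-3p, with 2.93 and 2.59 from its 2 spots. The authors' processed values, in which miR-210-3p is listed at 290 in aged and 66.3 in young skin, gave a ratio of 4.38, whereas the scanned intensities gave 1.32. The size of the ratio therefore depended on how background and array scale were treated. It ran from 1.26 with scaling to the median of all miRNAs to 4.74 with the empty spots subtracted before quantile normalisation. Subtraction of the empty spots alone, without normalisation, gave 1.53. Among the 210 miRNAs bright in aged and young unwounded skin alike, 15.7% were at least 2-fold different, and 1 had a larger ratio than miR-210-3p. The median of these bright miRNAs shifted between settings, from a ratio of 0.462 without normalisation between arrays to 1.18 with the empty spots subtracted. Set against that median, miR-210-3p was 2.39-fold higher in aged skin after quantile normalisation and 2.95-fold higher without normalisation between arrays. Over 6 settings this relative value lay between 2.39 and 4.10, the highest being that of the authors' values. miR-210-5p, near the detection level, was above the median of the bright miRNAs in all 6, at 1.13 to 2.44. Its highest value came without normalisation between arrays. In that setting the 3 nearest sequences, near or below the detection level on both arrays, had ratios of 0.891 to 0.99. These too lay above the bright median of 0.462, so this value of miR-210-5p cannot be told from that of a dim probe.

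The wounds of aged skin show how miR-210-3p moved after injury. The aged D0 array is the denominator of the ratios of D3, D5 and D7 and also the numerator of the ratio that chose miR-210, so these ratios share it. The ratio to D0 was 1.31 on D3, with 1.31 and 1.32 from the spots, 0.873 on D5, with 0.887 and 0.859, and 0.613 on D7, with 0.643 and 0.585. None of the 3 reached 2-fold, while 34.3% of the 207 bright miRNAs on D3, 17.6% of 204 on D5 and 18.2% of 203 on D7 did so in either direction. miR-210-3p was thus somewhat higher than D0 on D3, close to D0 on D5 and lower on D7. Against D0, 45 of the bright miRNAs had a larger ratio on D3, 121 on D5 and 164 on D7.

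Direction was not the same under every setting. The D3/D0 ratio was above 1 in 10 of 11 alternatives and 0.987 when arrays were scaled to the spike controls. The D5/D0 ratio was below 1 in 10 of 11 alternatives and 1.16 with scaling to the median of all miRNAs. The D7/D0 ratio was likewise below 1 in 10 of 11 and 1.11 with scaling to the 5S probes. The bright miRNAs as a whole shifted too, and their median D7/D0 ratio ran from 0.868 to 1.22 over 6 settings. When divided by the median ratio of the bright miRNAs, the D3/D0 ratio of miR-210-3p lay between 1.68 and 1.87 over these 6 settings, the D5/D0 ratio between 0.903 and 1.12, and the D7/D0 ratio between 0.579 and 0.771. On that scale miR-210-3p stood above D0 on D3 and below D0 on D7 in all 6.

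**Figure D2:**
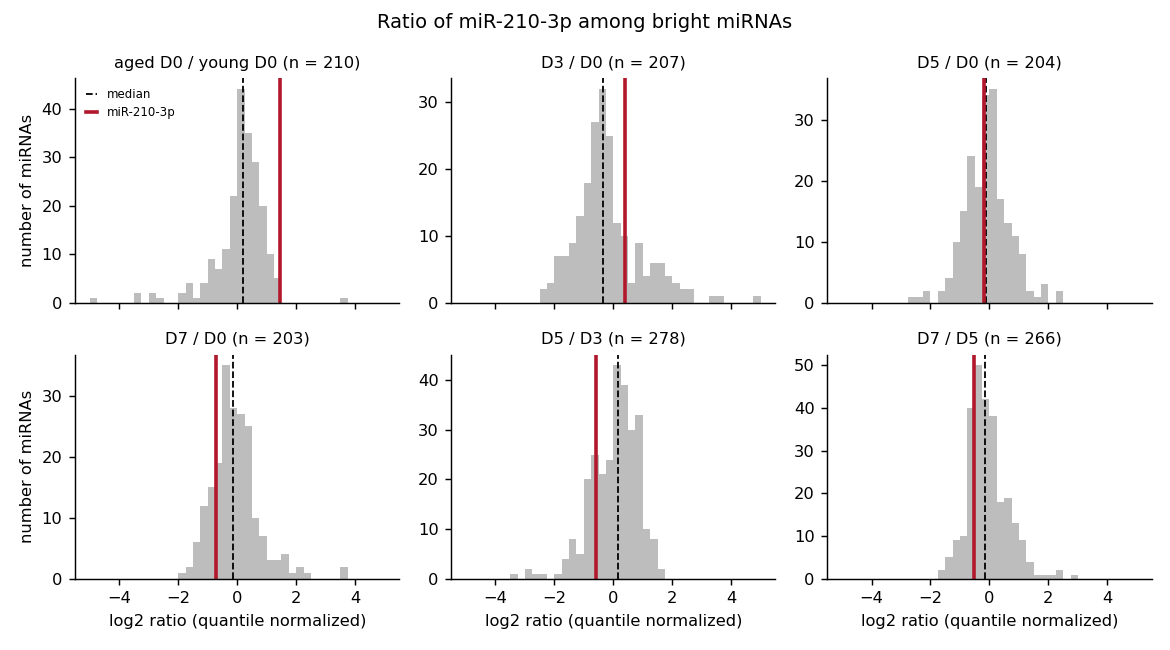
Log2 quantile-normalised ratios (horizontal axis) of the miRNAs bright on both arrays of each comparison, as counts per bin (vertical axis), with their median as a dashed line and miR-210-3p as a red line. miR-210-3p lay at the upper edge in aged over young unwounded skin, with 1 of 210 miRNAs above it, right of the median at D3/D0 and left of it at D7/D0, D5/D3 and D7/D5.

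The ratios from one wound day to the next have neither unwounded array as numerator or denominator, though all 5 arrays entered the quantile normalisation. From D3 to D5 the ratio of miR-210-3p was 0.664, with 0.679 and 0.649 from its spots, and the difference was 4.8 times the SD from repeat spots. All 11 alternatives gave a ratio below 1, between 0.555 and 0.679, and after division by the median ratio of the bright miRNAs it was between 0.521 and 0.591. Of the 278 miRNAs bright on both days, 220 had a larger ratio and 15.5% were at least 2-fold different. From D5 to D7 the ratio was 0.703 (first spot 0.725, second spot 0.681), and 13.5% of 266 bright miRNAs were at least 2-fold different. The D7/D5 ratio was below 1 in 8 of 11 alternatives and 1.08 without normalisation, 1.33 with the 5S probes and 1.46 with the spike controls. Divided by the bright median it stayed below 1, between 0.678 and 0.787. Between wound days, the lower levels on D5 and on D7 than on D3 held their direction in all 12 settings, and the order of D5 and D7 did not. D7 came close to D3 after scaling to the spike controls, at a log2 level of 8.37 against 8.42.

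**Figure D3:**
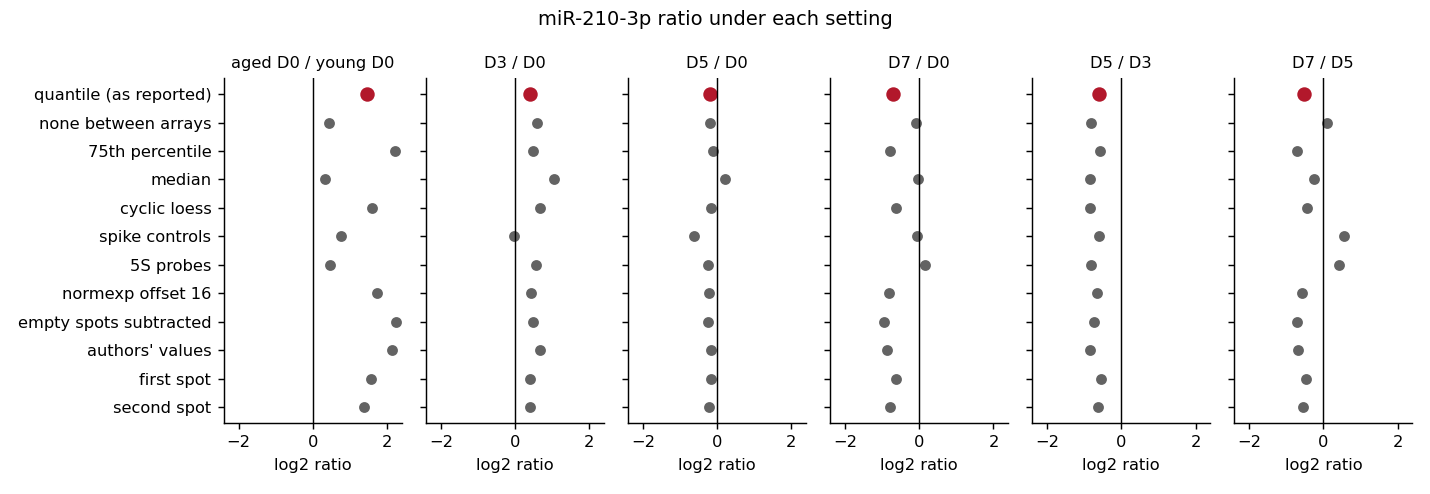
Log2 ratio of miR-210-3p (horizontal axis) in 6 comparisons under quantile normalisation (red) and the 11 alternatives (grey); the vertical line marks a ratio of 1. All points lie right of it for aged D0 over young D0 and left of it for D5/D3, whereas D3/D0, D5/D0, D7/D0 and D7/D5 have points on both sides.

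miR-210-5p, the other product of the hairpin, was dim. Its spots gave scanned intensities of 122 and 125 at aged D0, 95.6 and 82.6 on D3, 93.0 and 77.2 on D5, 150 and 131 on D7, and 115 and 119 in young skin. It was above the detection level on all 5 arrays and bright on none, at 1.09 to 1.53 times the detection level. Its normalised log2 levels spanned 6.58 to 6.96, and no neighbours in their order differed by more than 0.8 SD. The ends of that order, aged D0 and young skin, differed by 0.38, or 2.8 SDs. These SDs come from bright miRNAs, so they may not hold for a dim one. In aged over young unwounded skin the ratio was 1.30 (1.29 and 1.32 by spot) and 2.33 in the authors' processed values. Relative to aged D0, miR-210-5p stood at 0.872, 0.924 and 0.850 on the 3 wound days in turn. The D3/D0 ratio of miR-210-5p was 0.956 on its first spot and 0.794 on its second, where both spots of miR-210-3p were above 1. Divided by the bright median, it was 1.12 after quantile normalisation and between 0.763 and 1.12 over 6 settings, above 1 in 2 of them. Since miR-210-5p was dim, its ratios are less certain than those of miR-210-3p, and the difference between the 2 products was not tested.

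Base composition moved with these ratios across the arrays. miR-210-3p has 14 G or C among its 22 bases (63.6%), a GC content at percentile 76.8 of the miRNAs bright on D3 and D0. On D3, the 52 bright miRNAs richest in GC had a median ratio to D0 of 1.53, against 0.656 for the 54 poorest in GC. From D3 to D5 these medians were 0.693 (75 miRNAs) and 1.21 (71 miRNAs), and from D5 to D7 0.733 (69 miRNAs) and 1.14 (68 miRNAs). In these 3 comparisons miR-210-3p lay on the same side of 1 as the GC-rich miRNAs. It lay on the other side at D5/D0, where the GC-rich median was 1.16 and miR-210-3p had 0.873, and at D7/D0, where the values were 1.03 and 0.613. In aged over young unwounded skin the medians were 1.26 (54 miRNAs) and 1.04 (55 miRNAs), both below the 2.76 of miR-210-3p. The part of GC content in the ratios of miR-210-3p was not tested.

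The cell makeup of the samples also differed, as far as miRNAs typical of a cell type show it. In whole skin, fewer cells of a type and less RNA per cell cannot be told apart. Of 20 such miRNAs on the arrays, 17 were detected on all 5, and the exceptions were miR-142a-3p, miR-126a-5p and miR-144-3p. The epidermal miRNAs miR-203-3p and miR-205-5p were bright on every array, with lowest scanned intensities of 3173 and 7176 on D3. The scanned intensities, which are not adjusted for the scale of the array, summed over the 4 leukocyte miRNAs to 778 at aged D0, 3888 on D3, 2212 on D5, 3851 on D7 and 5568 in young skin. The leukocyte sum was thus lowest at aged D0 and highest in young skin, where miR-210-3p was lowest. Among the aged arrays this sum was highest on D3, as was miR-210-3p, though close to D7, at 3888 against 3851. The 4 skeletal muscle miRNAs summed to 32806, 6780, 7225, 15454 and 64973 in the same order of arrays, and the 7 epithelial miRNAs to 38488, 16244, 17339, 27475 and 46539. For endothelium (2 miRNAs) the sums were 3174, 1870, 2300, 3785 and 7617, and for erythroid cells (3 miRNAs) 2034, 982, 1284, 1177 and 2496. Every sum was highest in young skin, where bright miRNAs read higher before normalisation (median aged over young ratio 0.462). The normalised aged over young medians were 0.268 for leukocyte, 0.966 for muscle, 1.45 for epithelial, 1.06 for endothelial and 2.13 for erythroid miRNAs. The D3 wound, with the highest miR-210-3p, had the lowest muscle, epithelial, endothelial and erythroid sums, but not every miRNA of these lists was lowest there. The epithelial sum was mostly miR-203-3p and miR-205-5p, while miR-200c-3p was highest on D3, at 4406, and the muscle miRNA miR-1a-3p was lowest on D5, at 850, against 1480 on D3. The median normalised ratio of the erythroid miRNAs to D0 was lower on D7, at 0.320, than on D3, at 0.377. For 3 leukocyte miRNAs the median normalised ratio against aged D0 peaked on D3, at 6.11. Their D5 and D7 medians were 3.28 and 4.39. From D3 to D5 the leukocyte median was 0.557 (4 miRNAs), below 1 as was the 0.664 of miR-210-3p. At D7/D0 the leukocyte median was above 1, whereas miR-210-3p had 0.613. The leukocyte miRNA miR-150-5p was below D0 on D3, at 0.743. In aged over young unwounded skin the 2 erythroid miRNAs detected on both arrays had normalised ratios of 2.28 (miR-451a) and 2.00 (miR-486a-5p). The part of these cell types in the ratios of miR-210-3p was not tested.

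The miRNAs whose pattern over the 5 arrays was most like that of miR-210-3p were found among 284 other miRNAs that were detected on all arrays and bright on at least 3. Likeness was the root mean square difference of log2 levels after each profile was centred on its own mean. The closest was miR-5112, at 0.18, followed by miR-7005-5p at 0.27, miR-3620-5p at 0.28, miR-652-3p at 0.29 and miR-222-3p at 0.30. With 5 arrays this is a description.
miR-5112: uAGCUCAGcgggagagcac
miR-7005-5p: cCUGGGGAugggaggaccagca
miR-3620-5p: cUGUGGGCugggcugggaagca
miR-652-3p: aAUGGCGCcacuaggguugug
miR-222-3p: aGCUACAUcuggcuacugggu
The sequences, with seeds in capitals, are shown to let them be set beside miR-210-3p. No seed is shared with it or among them, the edit distances to miR-210-3p were 9 to 13 bases, and the GC contents ran from 52.4% to 68.2%. miR-5112 had ratios of 2.74 in aged over young unwounded skin, 1.2 at D3/D0, 1.1 at D5/D0 and 0.542 at D7/D0, where miR-210-3p had 2.76, 1.31, 0.873 and 0.613. It was also the closest in the authors' processed values, and ranked 3 without normalisation between arrays. Without normalisation miR-7005-5p ranked 8, miR-3620-5p 6, miR-652-3p 12 and miR-222-3p, a miRNA of vascular and proliferating cells, 31. In the authors' values they ranked 6, 5, 3 and 9 in that order, so these places depended on the scaling.

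**Figure D4:**
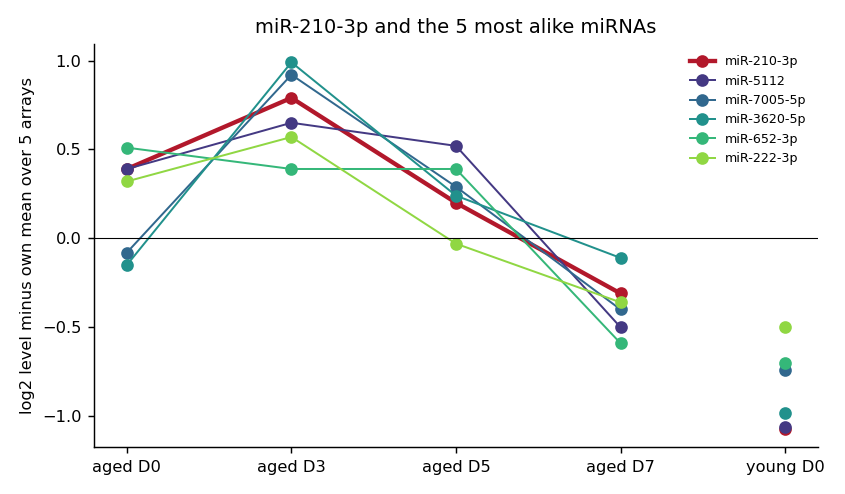
Log2 quantile-normalised level minus the miRNA's own mean over the 5 arrays (vertical axis) for miR-210-3p (red) and the 5 miRNAs with the smallest root mean square difference from it; lines join the aged arrays and the young array stands alone. All 6 were below their mean on D7 and in young skin, and 5 of them peaked on D3, with miR-652-3p highest at aged D0.

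Other miRNAs known to respond to low oxygen are described as 2 lists. Of 15 miRNAs described as raised in hypoxic cells, all were detected on all 5 arrays. Their median ratio in aged over young unwounded skin was 1.1, against 1.05 for the 501 miRNAs detected on both arrays. Most of the 15 were bright, and the median of the bright miRNAs was 1.16, with 15.7% at least 2-fold different. In that comparison 0 of the 15 were 2-fold or more higher and 1 was 2-fold or more lower, where 3.39% and 6.59% of the detected miRNAs were. The range ran from 0.409 for miR-322-5p, the mouse counterpart of human miR-424, to 1.48 for miR-130a-3p. The list median depended on the scaling, and over the 11 alternatives lay between 0.444 and 1.62.

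In the wounds, the median ratio of these 15 to D0 was 0.795 on D3, 0.892 on D5 and 0.869 on D7, against 0.900, 0.955 and 0.885 for all miRNAs detected on both arrays. Over the settings tried these medians lay between 0.395 and 0.869 on D3, between 0.434 and 0.892 on D5 and between 0.671 and 1.30 on D7. By the same 2-fold limit, 1 of the 15 was higher and 2 were lower on D3, and 2 were higher and 0 lower on both later days. For all detected miRNAs the D3 shares were 8.89% higher and 7.86% lower, the D5 shares 4.30% and 4.48%, and the D7 shares 4.80% and 4.63%. The highest ratio on each day was that of miR-21a-5p, which is also raised by growth signals and inflammation, at 5.70 at D3, 3.95 at D5 and 5.17 at D7. Scanned, miR-21a-5p read 2057 before wounding and 10300, 5253 and 12501 on the 3 wound days, with 8893 in young skin. The lowest were miR-130a-3p at 0.424 on D3, miR-181b-5p at 0.583 on D5 and miR-181c-5p at 0.670 on D7. On D3, 2 of the 15 had a larger ratio than miR-210-3p, on D5 8, and on D7 all 15. Over 12 settings these counts lay between 1 and 3, between 4 and 8, and between 11 and 15.

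A further 5 miRNAs are described as lowered in hypoxic cells, and all were detected on all 5 arrays. Their median ratio was 1.09 in aged over young unwounded skin, 0.806 on D3, 0.982 on D5 and 1.06 on D7. These medians turned to the other side of 1 under some scalings, and lay between 0.380 and 1.39, 0.557 and 1.17, 0.631 and 1.12, and 0.943 and 1.82 in the same order. miR-200b-3p, an epithelial miRNA, was the lowest on each day, at 0.381, 0.313 and 0.547. miR-199a-5p, a miRNA of fibroblasts that acts on hypoxia-inducible factor 1 alpha, was the highest on D5 and D7, at 1.29 and 2.94, and miR-20a-5p on D3, at 0.946. In unwounded skin the range was 0.563 for miR-20b-5p to 1.47 for miR-17-5p. On D7, 4 of the 5 had a larger ratio than miR-210-3p, and on D3 0 of the 5, with the same count on D3 in all 12 settings.

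**Figure D5:**
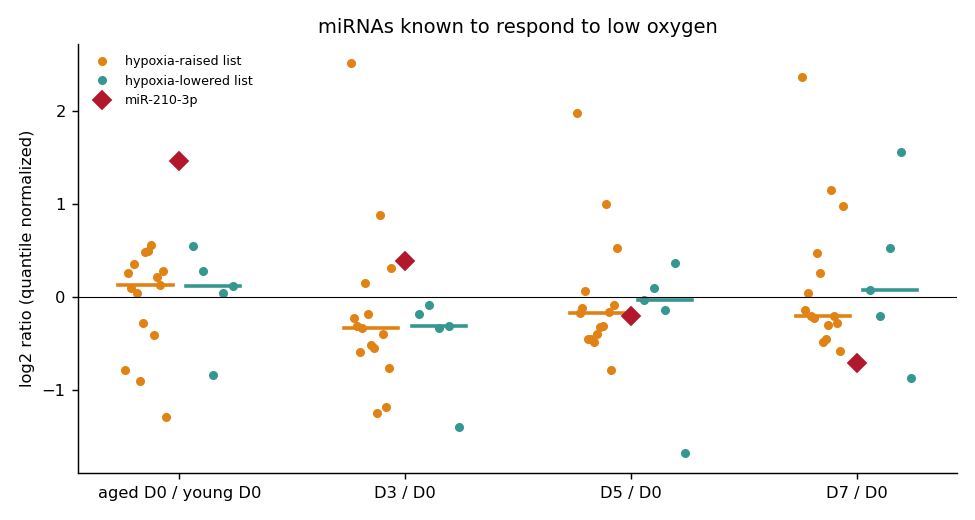
Log2 quantile-normalised ratios (vertical axis) of 15 miRNAs raised in hypoxic cells (orange) and 5 lowered (green), with bars at the list medians, and of miR-210-3p (red diamonds) in 4 comparisons. The red diamonds lie at 1.46 in aged over young unwounded skin, the ratio that chose miR-210, and at -0.70 at D7/D0, below all 15 raised miRNAs after quantile normalisation and below 11 of them after spike scaling.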

How the data were processed

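The authors deposited the scanned median intensity of every spot on a linear scale, not normalised and with empty background columns, and a table of processed intensity for each miRNA, also linear, whose background subtraction and normalisation are not given in the sources used here. RNA (0.5 ug) was labelled with Cy3 by a service provider. Samples were grouped by their labels, with 1 array a group.

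Here, spots were background corrected with normexp (offset 50) fitted on the intensities alone, control spots were left out, log2 values were quantile normalised over the 5 arrays, and the 2 spots were averaged. Normexp with an offset and the low signals pull ratios towards 1. An array's 4 empty spots set its detection level (their 95th percentile), and bright was above 2 times that level. Repeat spots gave SDs of 0.14, 0.14, 0.13, 0.25, 0.12 and 0.22 for the log2 ratios of aged over young D0, D3/D0, D5/D0, D7/D0, D5/D3 and D7/D5.

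The miRNAs and lists were chosen with earlier results of these data known. Named were both products of miR-210, miRNAs sharing a seed, the 3 nearest sequences, the 5 most alike profiles, and the highest and lowest of the hypoxia lists. Alternatives were no normalisation, scaling to the 75th percentile, the median, 11 spike controls or 5 5S probes, cyclic loess, offset 16, subtraction of the empty spots, the authors' values (both with a floor of 1) and each spot alone. Values with offset 16 or with the empty spots subtracted were then quantile normalised as in the main setting. The ratio script was tested on simulated data. Of the array miRNAs, 1610 had an identical sequence in the RefSeq table. Tools were R 4.3.3, limma 3.58.1, Python 3.11.15, pandas 2.3.3, numpy 2.4.6 and matplotlib 3.10.9.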

Additional observations from a re-analysis of the deposited data

How the results depend on the processing

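No paired analysis was possible because the 5 conditions were measured on a single array each. The aged over young ratio of miR-210-3p stayed above 1, and its D5/D3 ratio below 1, under all 11 alternatives. The aged over young ratio is the one that chose miR-210. That of miR-210-5p, near the detection level, was also above 1 over the scalings, between 1.04 and 3.78. miR-344g-3p, below the detection level on both arrays, had 0.931 in the main setting and 3.33 with the 75th percentile. For the values that moved, the cause was not tested, except that a lower fold limit or detection level must raise a count. The signal of miR-210-3p over background in young skin, 2.05 times the detection level, is one limit on the aged over young ratio.

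The ratios of miR-210-3p are given in the order aged over young D0, D3/D0, D5/D0, D7/D0, D5/D3 and D7/D5, leaving out those within the SD of repeat spots. Without normalisation between arrays all but D5/D0 were 1.36, 1.52, 0.939, 0.573 and 1.08. Scaling to the median gave 1.26, 2.07, 1.16, 0.978, 0.559 and 0.844 for all 6. The spike controls gave 1.70, 0.987, 0.653 and 0.951 for the first 4 and 1.46 for D7/D5, and the 5S probes 1.37, 1.48, 1.11, 0.567 and 1.33 for all but D5/D0. The 75th percentile gave 4.59 and offset 16 gave 3.32 for aged over young, and cyclic loess gave 1.60 for D3/D0 and 0.557 for D5/D3. Subtraction of the empty spots gave 4.74 for aged over young, 0.517 for D7/D0 and 0.604 for D5/D3, and the authors' values 4.38 for aged over young, 1.60 for D3/D0 and 0.555 for D5/D3. The first or the second spot alone moved no ratio of miR-210-3p beyond that SD.

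The number of bright miRNAs at least 2-fold different between aged and young D0 went from 33 to 125 without normalisation, 67 with the 75th percentile, 143 with the median, 78 with the spike controls, 123 with 5S, 50 for all detected miRNAs and 78 at 1.5-fold. On D3 it went from 71 to 114 with the spike controls and 116 at 1.5-fold, on D5 from 36 to 85 with the spike controls, 57 with the authors' values and 86 at 1.5-fold, and on D7 from 37 to 58 with 5S and 76 at 1.5-fold. For D5/D3 it went from 43 to 82 with the empty spots subtracted, 75 with the authors' values and 135 at 1.5-fold, and for D7/D5 from 36 to 70 without normalisation, 126 with the spike controls, 110 with 5S and 96 at 1.5-fold.

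For the 5 most alike miRNAs, the 3 nearest sequences, the medians of the hypoxia lists and miR-210-5p the same alternatives were set after the data were seen, and for the other named miRNAs they were not run one by one. Among the ratios of at least 2-fold of the most alike miRNAs, the aged over young ratio of miR-652-3p turned from 2.30 to 0.878 without normalisation, 0.809 with the median and 0.885 with 5S, and the D7/D5 ratio of miR-5112 from 0.493 to 1.26 with the spike controls and 1.15 with 5S. For the 15 hypoxia-raised miRNAs the median aged over young ratio was 0.482 when unnormalised, 0.444 after median scaling, 0.601 after spike scaling and 0.485 after 5S scaling, and the median D7/D0 ratio was 1.09, 1.14, 1.11 and 1.3 in that order. Spike scaling gave this list medians of 0.395 at D3/D0 and 0.434 at D5/D0. For the 5 hypoxia-lowered miRNAs median scaling gave 0.38 in aged over young skin and 1.17 at D3/D0, and 5S scaling gave 1.82 at D7/D0.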
